A study of Mus musculus with 6 samples.

Results

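The ErbB receptors and their EGF-like ligands were followed in sciatic nerves of 14-day-old mice. Every probe annotated to Nrg1, Egfr, Erbb2, Erbb3, Erbb4, Btc, Hbegf, Tgfa, Areg or Ereg was taken, which gave 19 of the 45281 probes on the array and 9 of the 10 genes (of 19057 genes named by a single symbol). Areg matched no probe in the annotation and was not analysed here. There were 3 arrays of total RNA from mutants and 3 from control littermates, all at postnatal day 14 and with female and male given for each sample. The mutants carry P0-Cre, a Cre recombinase transgene driven by the promoter of the myelin protein gene P0 and therefore active in the Schwann cell lineage, together with Dicer given as "F or N". What "F or N" stands for, the alleles of the control littermates, and whether an array held 1 animal or a pool are not stated in the labels. P-values measure the scatter among these 6 arrays only, part of which may be technical. The nerve holds several cell types, and fewer cells of a type cannot be told apart from less RNA per cell.

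ErbB receptors are a family of receptor tyrosine kinases that pair up when an EGF-like ligand binds, although ErbB2 has no known ligand of its own and ErbB3 has little kinase activity, so that these receptors depend on a partner. In peripheral nerve, neuregulin 1 carried on axons acts on ErbB2 and ErbB3 of Schwann cells, and this signal drives their survival and growth and sets the thickness of the myelin sheath. The ligands Hbegf, Tgfa, Areg, Btc and Ereg bind Egfr, and Hbegf, Btc and Ereg also bind ErbB4. Most are made as membrane proteins and are released by proteases of the Adam family.

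Hbegf rose in the mutant nerves and was the member with the largest change, 1.63 on the deposited log2-like scale. Egfr, a receptor of Hbegf, was called higher on 2 of 4 tested probes, by 0.38 and 0.33. It was not called on its brightest probe, at 0.23 (limma adjusted p = 0.106). Erbb2, the shared partner of the family, had nearly the same level in mutants and controls, 9.37 and 9.39. Probes of Nrg1, Erbb4 and Ereg stayed at the dim end of the scale in both groups, and so did the single probes of Erbb3, Tgfa and Btc.

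Values run from 7.96 to 15.91 with a median of 8.24 on every array, and the brightest 18420 by their mean over the 6 arrays were tested, the dimmest of them at 8.34. Of the 19 member probes, 8 were tested, from Egfr, Erbb2, Erbb3, Hbegf and Tgfa. The other 11 were below that brightness and are read from a fit across all probes. The tested probes closest to the limit were those of Erbb3 and Tgfa, with means of 8.345 and 8.349 against a limit of 8.341. Just outside it were an Egfr probe at 8.308 and the Btc probe at 8.302. limma called 3 of the 8 tested member probes at an adjusted p under 0.05, or 37.5%, where it called 35.8% of all tested probes. That share is near the background. All 3 were higher in mutants, a direction in which 19.9% of all tested probes were called. With a difference of at least 1 added, 1 member probe, that of Hbegf, was called, where 4.5% of all tested probes passed this in either direction and 2.05% upwards. The median difference of the 8 probes was 0.18, beside 0.01 over all tested probes. As 4 of these probes are of Egfr, that median is not one over genes. By the brightest probe of each gene the differences were 1.63 for Hbegf, 0.23 for Egfr, 0.04 for Erbb3, -0.01 for Erbb2 and -0.01 for Tgfa.

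**Figure D1:**
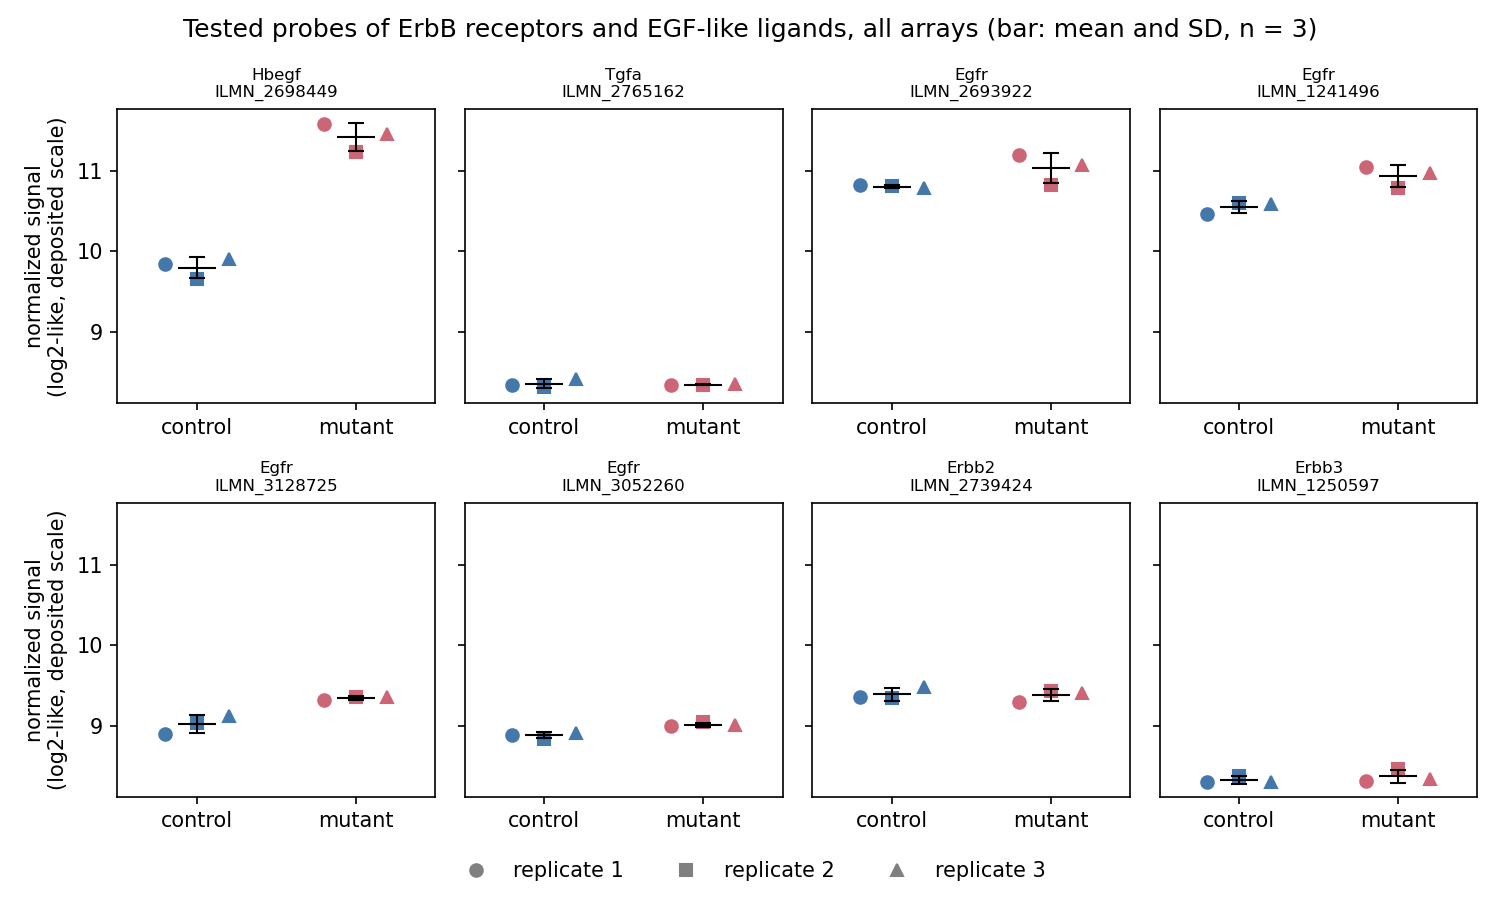
Normalized signal (vertical axis, deposited log2-like scale) of the 8 tested probes in each control array (blue) and mutant array (red), with marker shape for the replicate and black bars for mean and SD (n = 3). The mutant arrays of the Hbegf probe lie between 11.24 and 11.58, above the control arrays at 9.66 to 9.90, while Tgfa and Erbb3 stay near 8.3 to 8.5 in both groups.

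Hbegf encodes heparin-binding EGF-like growth factor, a membrane-anchored ligand of Egfr and ErbB4 that is released by shedding. Its tested probe, ILMN_2698449, had levels of 11.58, 11.24 and 11.46 in mutant replicates 1, 2 and 3 and of 9.84, 9.66 and 9.90 in control replicates 1, 2 and 3. Every mutant array was above every control array, with a gap of 1.336 between the lowest mutant and the highest control. The mean level was 11.42 ± 0.173 in mutants and 9.80 ± 0.127 in controls (SD, n = 3 each). The difference of 1.63 (SE 0.106, 95% interval 1.37 to 1.88) was called by limma (adjusted p = 8.06e-05). If the deposited scale were plain log2, it would be a 3.09-fold rise. As a description, 108 of the 18420 tested probes, or 0.586%, rose by at least as much. Without any single array the difference ran from 1.55 to 1.72, and the call was kept each time.

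A further Hbegf probe, ILMN_2569725, was outside the brightness filter. Its levels were 8.23, 8.27 and 8.25 in mutants and 8.23, 8.24 and 8.37 in controls, which overlap at the dim end. The difference was -0.03 (SE 0.042, limma adjusted p = 0.78 across all probes). The rise of Hbegf therefore rests on 1 probe, which is annotated to a RefSeq transcript of the gene, whereas the dim probe is annotated to an accession that the RefSeq gene table used here does not list.

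Egfr encodes a receptor of Hbegf, Tgfa, Areg, Btc and Ereg. It was read by 6 probes, of which 4 were tested. On ILMN_1241496 the levels were 11.05, 10.79 and 10.97 in mutants and 10.47, 10.60 and 10.59 in controls. The groups did not overlap, and the difference was 0.38 (SE 0.080, 95% interval 0.19 to 0.57, limma adjusted p = 0.011). On ILMN_3128725 the mutants were at 9.32, 9.36 and 9.36 and the controls at 8.90, 9.03 and 9.12. Again all mutant arrays were higher, by 0.33 in the mean (SE 0.068, 95% interval 0.17 to 0.49, limma adjusted p = 0.0106). Leaving out each array in turn kept both calls, with adjusted p-values from 0.00824 to 0.0474 for ILMN_1241496 and from 0.00983 to 0.039 for ILMN_3128725.

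The remaining tested Egfr probes were not called. They include the brightest, ILMN_2693922, so Egfr would not be called by its brightest probe alone. ILMN_2693922 had 11.20, 10.83 and 11.08 in mutants and 10.82, 10.81 and 10.79 in controls. Mutant replicate 2 lay only 0.016 above the highest control, and the difference of 0.23 (SE 0.096, limma adjusted p = 0.106) was larger without that array, 0.33, where it was called (adjusted p = 0.0159). It was smaller without mutant replicate 1, 0.15 (adjusted p = 0.178), and with limma's array weights, 0.07 (adjusted p = 0.455). ILMN_3052260 had 8.99, 9.04 and 9.01 in mutants and 8.89, 8.84 and 8.91 in controls. Its groups did not overlap either, and its difference was 0.14 (SE 0.048, limma adjusted p = 0.0705). This probe was called when all probes were tested (adjusted p = 0.0235) and with limma's array weights (0.0107), and not with the replicate number as a block (0.138) or without any single array (0.0702 to 0.2). Mutant arrays were above control arrays on 5 of the 8 tested member probes, the 4 of Egfr and 1 of Hbegf, where 28.3% of all tested probes showed this. The 2 dim Egfr probes overlapped between the groups, at 8.34, 8.33 and 8.35 against 8.24, 8.35 and 8.24 for ILMN_2614432 and at 8.08, 8.12 and 8.11 against 8.11, 8.11 and 8.07 for ILMN_2581001.

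The Egfr probes differed in the order of the mutant arrays. On both probes with mean levels above 10, mutant replicate 1 was highest and mutant replicate 2 lowest, as it was for Hbegf. ILMN_3128725 and ILMN_3052260 instead held their 3 mutant arrays within an SD of 0.0226 and 0.0223. Both of these are annotated to transcript NM_007912. ILMN_2693922 and the dim ILMN_2614432, neither of them called, are annotated to NM_207655. The gene table used here lists both transcripts under Egfr. No transcript is given for ILMN_1241496, the called probe with the larger difference, 0.38. Whether the probes differ in the size of the change was not tested.

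**Figure D2:**
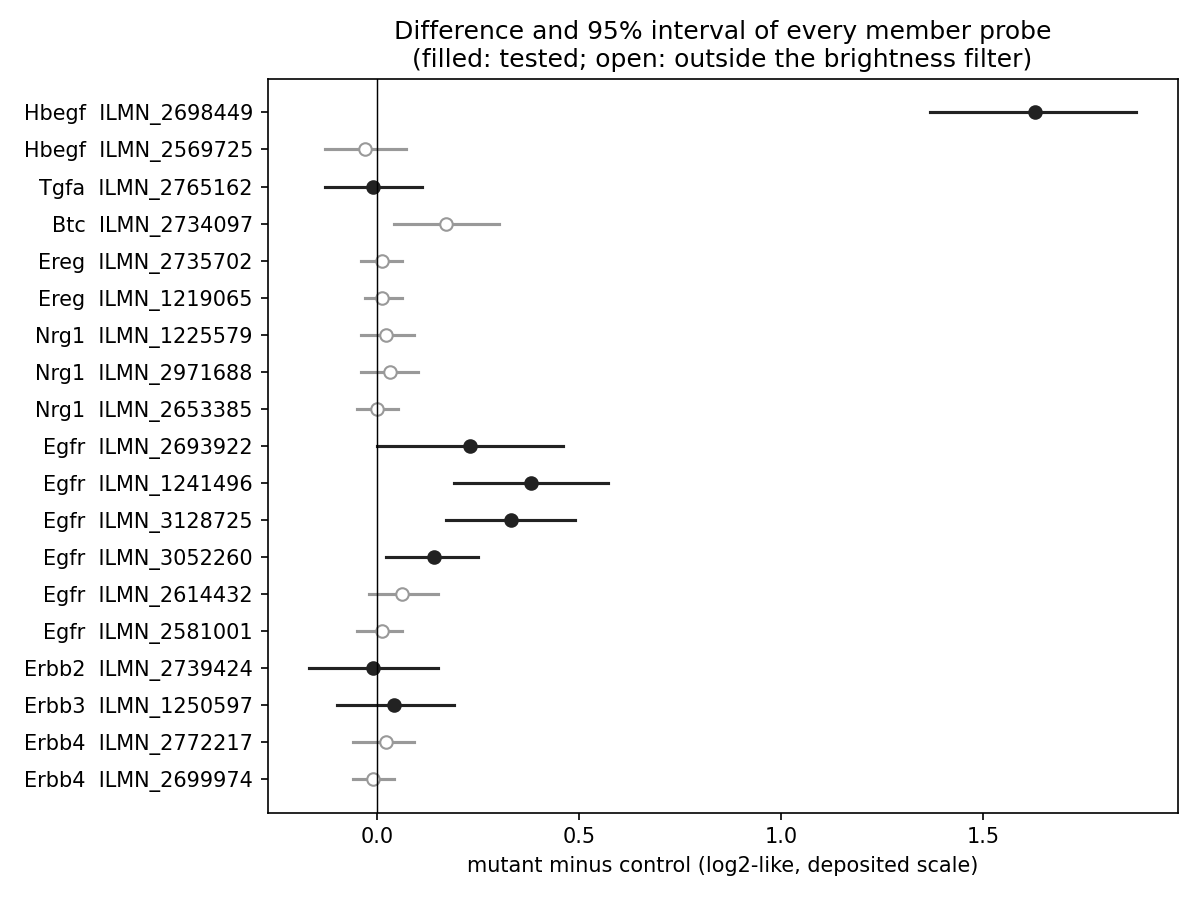
Difference between mutant and control (horizontal axis, deposited log2-like scale) for each of the 19 member probes with its 95% interval from limma, not adjusted for the number of probes, where filled points are tested probes and open points lie outside the brightness filter. The brighter Hbegf probe stands alone at 1.63, the 4 tested Egfr probes lie between 0.14 and 0.38, and probes of Nrg1, Ereg and Erbb4 lie between -0.01 and 0.03.

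Erbb2 encodes the receptor without a ligand of its own that pairs with ErbB3 in Schwann cells. Its only probe had 9.29, 9.43 and 9.41 in mutants and 9.35, 9.34 and 9.48 in controls, and the groups overlapped. The difference was -0.01 (SE 0.067, limma adjusted p = 0.896), and its 95% interval of -0.17 to 0.15 leaves out a change as large as that of Hbegf. Erbb3, which binds neuregulin, had 8.31, 8.46 and 8.34 in mutants and 8.30, 8.38 and 8.30 in controls. These values sat just above the median of all probes on every array. The difference was 0.04 (SE 0.060, 95% interval -0.10 to 0.19, limma adjusted p = 0.636). Erbb4, a neuregulin receptor better known from heart and brain, was read by 2 dim probes. ILMN_2772217 had 8.09, 8.18 and 8.10 in mutants and 8.11, 8.08 and 8.14 in controls, and ILMN_2699974 ran from 8.03 to 8.08 over all arrays. Their differences of 0.02 and -0.01 were not called across all probes (limma adjusted p = 0.857 and 0.846).

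Among the ligands, Nrg1 was read by 3 probes, none of them bright enough to be tested. Nerve RNA holds little from neuronal cell bodies, which lie outside the nerve, while Schwann cells themselves are known to make soluble neuregulin after injury. Its brightest probe, ILMN_1225579, had 8.22, 8.26 and 8.26 in mutants and 8.21, 8.20 and 8.26 in controls, which overlap. Over all 3 probes and 6 arrays the levels ran from 8.05 to 8.26 and the differences from 0.00 to 0.03 (limma adjusted p from 0.65 to 0.994 across all probes). The 95% intervals of the 3 differences lay between -0.05 and 0.10 on this scale, at levels around the median of all probes, where the array may not register a change.

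Betacellulin, the Btc product, binds Egfr and ErbB4. Its probe had 8.47, 8.39 and 8.30 in mutants and 8.28, 8.20 and 8.16 in controls. All mutant arrays were above all control arrays by a gap of 0.021, as on 16.1% of all probes on the array. The difference of 0.17 (SE 0.053, 95% interval 0.04 to 0.30, unadjusted p = 0.0182) was not called across all probes by limma (adjusted p = 0.1). Tgfa, which encodes transforming growth factor alpha, had 8.34, 8.34 and 8.35 in mutants and 8.34, 8.31 and 8.42 in controls. The difference was -0.01 (SE 0.052, 95% interval -0.13 to 0.11, limma adjusted p = 0.906). Ereg, the epiregulin gene, ran from 8.07 to 8.14 over 2 probes and 6 arrays, with differences of 0.01 on each probe (limma adjusted p = 0.748 and 0.908 across all probes). None of the 11 member probes outside the filter was called in the fit across all probes, where 14.1% of probes were called, and 1 of them, that of Btc, had an unadjusted p under 0.05.

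Promoter sequences are shown for Egfr, called higher on 2 of its 4 tested probes, and for Erbb2, which was not called. These are the receptors read well above the dim end. They come from RefSeq (GRCm38.p6), which matched Egfr, Erbb2, Erbb4, Btc, Tgfa and Areg, and span 250 bases before to 50 bases after the annotated start. The Egfr promoter is chr11:16751953-16752252 and the Erbb2 promoter chr11:98412234-98412533, both on the plus strand. Capitals mark the GC box letters GGGCGG on either strand.
Egfr: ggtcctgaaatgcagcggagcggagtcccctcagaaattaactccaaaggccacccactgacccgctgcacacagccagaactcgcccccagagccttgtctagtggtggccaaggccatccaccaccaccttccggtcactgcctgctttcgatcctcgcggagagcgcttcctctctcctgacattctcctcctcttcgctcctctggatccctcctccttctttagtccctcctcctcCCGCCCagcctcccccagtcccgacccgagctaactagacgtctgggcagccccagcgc
Erbb2: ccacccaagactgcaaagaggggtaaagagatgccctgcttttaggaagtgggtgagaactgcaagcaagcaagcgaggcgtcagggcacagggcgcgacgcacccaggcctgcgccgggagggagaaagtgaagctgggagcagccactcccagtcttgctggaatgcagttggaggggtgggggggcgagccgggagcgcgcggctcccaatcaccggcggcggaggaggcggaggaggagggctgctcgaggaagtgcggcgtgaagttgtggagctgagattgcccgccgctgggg
The Egfr window held 1 GC box, which reads CCGCCC on the strand shown, and the Erbb2 window held 0. Of 32851 promoters of the same length, 35.7% held at least 1. G and C made up 62.3% of the Egfr window and 66.0% of the Erbb2 window, beside a median of 52.7% over all promoters. Neither window held the TATA box letters TATAAA or the AP-1 letters TGAGTCA on either strand, which 13.6% and 5.2% of promoters held. These are counts of letters and say nothing of factor binding.

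The genes whose levels followed Hbegf most closely over the 6 arrays were Cyp4v3, Ccne1, Numb, Lgi1 and Lhfpl2, with Pearson's r from 0.9987 to 0.9997. All points share the difference between the groups, and 144 of 10268 genes compared had an r over 0.99, so the ranking is a description. Cyp4v3, a cytochrome P450 of fatty acid metabolism, had levels of 10.87, 10.66 and 10.82 in mutants and 9.62, 9.48 and 9.67 in controls, in the same order of arrays as Hbegf. Ccne1, the cyclin E1 gene of the entry into DNA synthesis, was at 9.03, 8.94 and 9.00 against 8.41, 8.36 and 8.44. Numb, an inhibitor of Notch signalling, was at 11.37, 11.19 and 11.30 against 10.59, 10.47 and 10.62. The differences of these 5 genes were 1.19, 0.59, 0.72, 1.20 and 0.69.

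Other genes of the pathway were taken from 7 lists by role, with the brightest tested probe for each gene. Of 79 genes tested, 23 rose, 8 fell and 48 were not called, so that 39.2% were called, where 39.6% of all 10273 genes tested were (22% higher and 17.6% lower). The median difference was 0.12, beside 0.01 over all genes. As many as 13 of the 31 called genes lost their call under at least 1 alternative, and 18 did not, while 18 of the 48 uncalled genes gained a call under at least 1. Among the called genes, 15 had further tested probes, and 7 of these had at least 1 such probe that was not called. Araf, a RAF kinase gene counted as higher by its brightest probe (0.40, limma adjusted p = 0.0144), was the 1 gene with calls in both directions. A further Araf probe was called higher, at 0.39 (adjusted p = 0.00517), and 2 were called lower, at -0.64 (0.00109) and -0.41 (0.0055). Pik3r1, a PI3-kinase subunit gene counted as not called (-0.35, adjusted p = 0.109), was called lower on 2 further probes, at -0.44 (0.0265, and 0.0625 with the replicate number as a block) and -0.21 (0.0158).

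Ligand shedding had the largest median of these lists, 0.35, with 6 of 11 tested genes higher and 1 lower. Over all genes tested, 22% were called higher and 17.6% lower. The median of the list is the value of Timp3, an inhibitor that is counted among the 6. Adam17, the main protease that sheds Egfr ligands including Hbegf, had levels of 12.34, 11.99 and 12.16 in mutants and 11.37, 11.17 and 11.21 in controls. The groups did not overlap, and it rose by 0.91 (SE 0.103, limma adjusted p = 8.52e-04). Adam9, another protease able to shed Hbegf, rose by 0.86 (SE 0.131, adjusted p = 0.00297), with levels of 12.37, 11.94 and 11.93 in mutants against 11.16, 11.15 and 11.35. Rhbdf1, which encodes the Adam17 partner iRhom1, was at 13.64, 13.55 and 13.51 in mutants and 12.85, 12.74 and 12.69 in controls and rose by 0.81 (SE 0.065, adjusted p = 1.94e-04). Bace2, the close relative of the neuregulin-cleaving protease gene Bace1, was the member that fell, by 0.70 (SE 0.090, adjusted p = 0.00146). Timp3, an inhibitor of Adam17, was counted as higher by its brightest probe, at 0.35 (SE 0.065, adjusted p = 0.00659). Its other tested probes were not called, at 0.34 (adjusted p = 0.133) and -0.01 (0.916). All 4 tested Bace2 probes were called lower, from -0.36 to -0.70. Bace1 itself was at 11.55 ± 0.238 in mutants and 11.48 ± 0.128 in controls and was not called (adjusted p = 0.694), nor was Adam10, at 9.07 and 9.19 (adjusted p = 0.22). Fits without 1 array called 4 to 6 genes of this list higher and 1 to 2 lower, the higher count of lower calls being without mutant replicate 1.

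Brakes on the receptors had 4 of 14 genes higher, 1 lower and a median of 0.13. Lrig1, a membrane protein that sends ErbB receptors to degradation, was at 11.90, 11.82 and 11.70 in mutants and 10.82, 10.67 and 10.90 in controls. It rose by 1.01 (SE 0.080, limma adjusted p = 1.79e-04), with no overlap between the groups. Sh3kbp1, the Cbl partner CIN85 in receptor uptake, rose by 0.72 (SE 0.075, adjusted p = 5.98e-04), and all 4 of its tested probes were called higher, 1 of which was not called with the replicate block (0.0604). Socs3, a suppressor of cytokine signalling, rose by 0.47 (SE 0.076, adjusted p = 0.0037). Rnf41, the ubiquitin ligase that sets ErbB3 levels, fell by 0.39 (SE 0.099, adjusted p = 0.0231) on its brightest probe. That call was lost without mutant replicate 2 (0.057), control replicate 1 (0.061) or control replicate 3 (0.071), and with all probes tested (0.0545). A further Rnf41 probe was called at -0.39 and a dim one was not, at 0.00. Errfi1, the feedback inhibitor of Egfr, was at 11.38 ± 0.211 in mutants and 11.64 ± 0.0875 in controls (adjusted p = 0.111), and Lrig3 was at 10.54 and 10.57. Without mutant replicate 1 the counts were 5 higher and 3 lower, and without control replicate 1 there were 3 and 0.

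**Figure D3:**
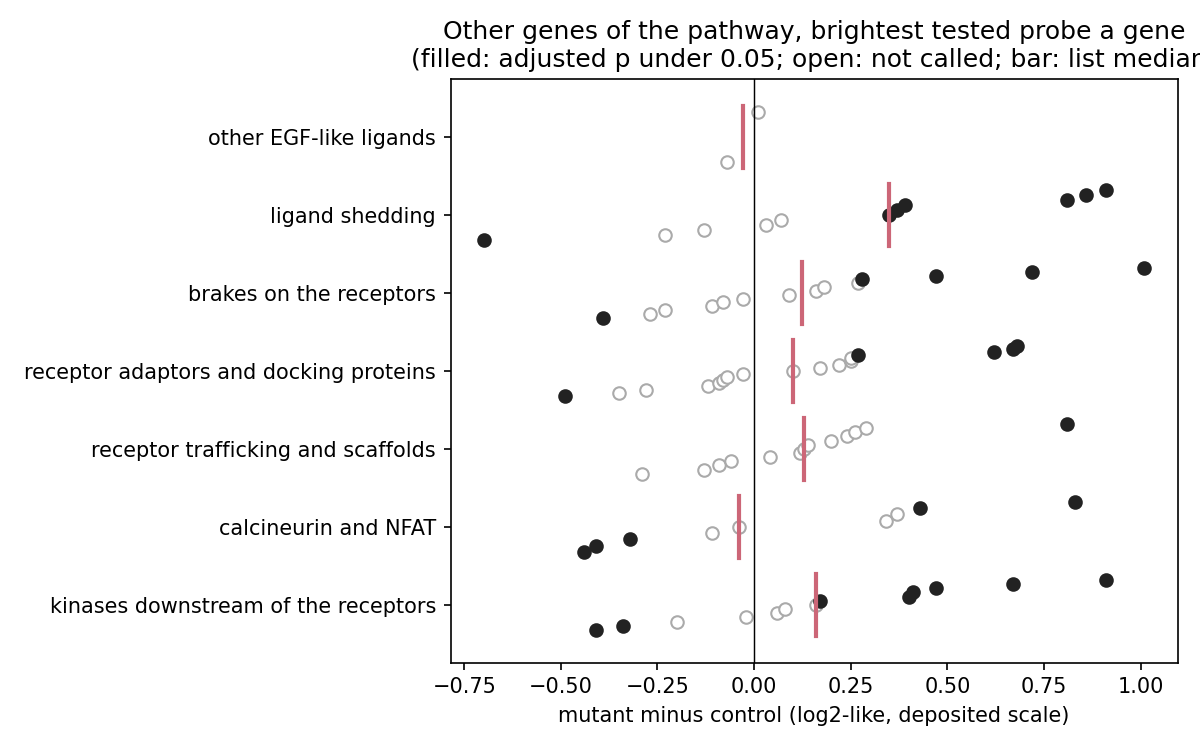
Difference between mutant and control (horizontal axis, deposited log2-like scale) of each tested gene in 7 lists of pathway genes, where filled points were called at an adjusted p under 0.05, open points were not, and red bars are list medians. Ligand shedding has its median at 0.35 with Adam17, Adam9 and Rhbdf1 at 0.81 to 0.91 and Bace2 at -0.70, and the other medians lie between -0.04 and 0.16.

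Receptor adaptors and docking proteins had 4 of 17 genes higher, 1 lower and a median of 0.10. With the replicate number as a block, 5 were called higher and 2 lower, since Nck1 and Gab1 were then called. Pik3r3, a regulatory subunit of PI3-kinase, rose by 0.68 (SE 0.113, limma adjusted p = 0.00433), and Vav2, an exchange factor recruited by Egfr, by 0.67 (SE 0.061, adjusted p = 3.20e-04). Crk rose by 0.62 (SE 0.163, adjusted p = 0.0252), a call lost without control replicate 1 (0.0824), 2 (0.0875) or 3 (0.0529) and with all probes tested (0.0721), and 2 dimmer Crk probes were not called. Shc4 fell by 0.49 (SE 0.063, adjusted p = 0.00139), from 8.93 to 8.44 near the dim end. Without control replicate 2 the list had 2 genes higher, and without mutant replicate 1 it had 3 lower. Ptpn11, the phosphatase SHP2, was at 13.29 ± 0.183 in mutants and 13.36 ± 0.0742 in controls and was not called (adjusted p = 0.618).

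Receptor trafficking and scaffolds had 1 of 13 genes higher and 0 lower, with a median of 0.13. Eps8, an Egfr substrate that acts on actin, was the gene called, at 9.49, 9.25 and 9.15 in mutants and 8.47, 8.47 and 8.52 in controls. It rose by 0.81 (SE 0.090, limma adjusted p = 7.78e-04). Erbin, the Erbb2-binding scaffold, was at 10.06 ± 0.254 in mutants and 9.79 ± 0.0622 in controls (adjusted p = 0.149). Without mutant replicate 1 this list had 2 genes higher and 1 lower.

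Calcineurin and NFAT, a branch that neuregulin is known to engage in Schwann cells, had 2 of 9 genes higher, 3 lower and a median of -0.04. Ppp3ca, a calcineurin catalytic subunit, rose by 0.83 (SE 0.199, limma adjusted p = 0.018), but lost the call without control replicate 1 (0.0657) or 2 (0.0663) and with all probes tested (0.0561). A further Ppp3ca probe was also called higher, at 0.54 (adjusted p = 0.0266). Another catalytic subunit gene, Ppp3cc, fell by 0.44 (SE 0.074, adjusted p = 0.00434). The NFAT factor gene Nfatc3 rose by 0.43 (SE 0.058, adjusted p = 0.0018) on its brightest probe, while its 3 dimmer probes were not called. Rcan2, a regulator of calcineurin, fell by 0.41 (SE 0.100, adjusted p = 0.0191), a call lost without mutant replicate 2 (0.0661), control replicate 1 (0.07) or control replicate 2 (0.0716). The other gene counted as lower, Rcan1, fell by 0.32 (SE 0.056, adjusted p = 0.00554) and kept its call under all 13 alternatives. The list had 1 gene higher without control replicate 1 or 2, and without either of them its median was above 0, at 0.06 and 0.04. That median was also above 0, at 0.01, without mutant replicate 3.

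Signalling proteins downstream of the receptors had 6 of 13 genes higher, 2 lower and a median of 0.16. Pik3cb, a catalytic subunit of PI3-kinase, was at 10.45, 10.22 and 10.31 in mutants and 9.59, 9.23 and 9.43 in controls and rose by 0.91 (SE 0.106, limma adjusted p = 9.25e-04). Nras rose by 0.67 (SE 0.130, adjusted p = 0.00822) on its brightest probe and was not called on its dimmest. Stat3 rose by 0.47 (SE 0.122, adjusted p = 0.024), a call lost without mutant replicate 3 (0.0521) or control replicate 1 (0.0579) and with all probes tested (0.063). A further Stat3 probe was called at 0.28 and another was not, at 0.19 (adjusted p = 0.0983). Src rose by 0.41 (SE 0.124, adjusted p = 0.0415) with 8.87, 9.32 and 9.28 in mutants and 8.69, 8.73 and 8.83 in controls, and its call held without mutant replicate 1 but was lost without each of the other arrays (0.0814 to 0.128). With all probes tested it was at 0.102. Map2k2, the ERK kinase MEK2, fell by 0.41 (SE 0.067, adjusted p = 0.00388) on its brightest probe, and a dim probe was not called, at -0.02 (adjusted p = 0.73). Only 3 genes of the list were called higher without mutant replicate 3, control replicate 1 or control replicate 3, and 1 was lower without mutant replicate 2 or control replicate 3. With the replicate block the count of higher genes was 5, as Rps6ka3 was then not called. Of the other EGF-like ligands, Nrg4 (8.35 in mutants and 8.41 in controls) and Epgn (8.50 and 8.49) were tested, at the dim end, and neither was called (limma adjusted p = 0.408 and 0.897). Egf and Nrg3 were on the array but not tested.

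Dicer1 was read by 3 probes, whose position in the gene is not known here, so they do not check the genotype labels. The brightest had 9.28, 9.10 and 9.13 in mutants and 9.29, 9.17 and 9.13 in controls and was not called (-0.02, limma adjusted p = 0.832). ILMN_1215331, nearer the dim end, had 8.38, 8.45 and 8.34 in mutants and 8.65, 8.63 and 8.50 in controls, with no overlap, and was called lower by 0.20 (adjusted p = 0.0458). That call was lost with all probes tested (0.0558), with the replicate block (0.0529) and in 5 of the 6 fits without 1 array (0.0602 to 0.15), and held without control replicate 3 (0.0362). The dimmest, outside the filter, differed by 0.01 (0.97 across all probes). Correlations between arrays were 0.992 to 0.995 among controls, 0.973 to 0.993 among mutants and 0.912 to 0.942 between the groups. Marker genes of the cell types in nerve were set beside the members, by the sum of their log-scale levels. Schwann cell markers had 3 of 5 genes higher, 1 lower, S100b, and 1 not called, Sox10, at 13.98 in mutants and 13.94 in controls, with sums of 53.68 to 53.90 in mutants and 50.04 to 50.94 in controls. The largest difference in this list was that of Gfra3, at 2.76, and that of S100b was -1.19. Fibroblast markers had 2 of 8 higher, Col1a1 and Lum, with 106.26 to 108.57 against 103.63 to 105.25. Mast cell markers had 4 of 5 higher, with 48.35 to 50.40 against 45.66 to 46.19. The 2 tested melanocyte markers went opposite ways, Dct higher (1.51) and Pmel lower (-0.74), with sums of 18.40 to 18.66 against 17.59 to 17.86. Skeletal muscle markers had 1 of 6 lower, Myh1, with 57.32 to 68.85 against 69.36 to 77.04. None of these 5 sums overlapped between the groups, muscle being lower and the others higher in mutants. How often sums of other genes separate was not computed, and 28.3% of single tested probes had every mutant array above every control array. A sum can also follow 1 gene of its list. The part of these cell types in the differences of Hbegf and Egfr was not tested. The sum of 7 macrophage markers overlapped, at 71.39 to 72.69 against 70.35 to 71.71, with Cx3cr1 called higher. Perineurial markers had 1 of 6 higher and 1 lower, endothelial and mural markers 1 of 7 higher and 2 lower, and neither 3 neuronal nor 2 adipocyte markers were called. No marker of T and B cells (3 on the array) or of keratinocytes (4 on the array) was bright enough to be tested. With the replicate block, Ckm (limma adjusted p = 0.0473) and Mylpf (0.0137) of muscle and Adipoq (0.0356) were also called lower, Adgre1 (0.0359) and Pecam1 (0.0313) were called higher, and the perineurial gene Msln was no longer called (0.0675). Kcnj8, 1 of the 2 mural and endothelial genes called lower, kept its call without control replicate 3 and lost it without each of the other arrays.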

How the data were processed

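The authors deposited 1 table of normalized log2-like values for 6 Mouse WG-6 version 2 bead arrays. Preprocessing with limma and normalization by RMA are stated in the design text, and the submitters' processing notes list lumi 1.8.3. Neither the exact transform (plain log2 or variance-stabilised) nor the background correction is stated, so fold changes of dim probes may be understated. The design text gives a present-call filter that kept 18420 probes. Here the 18420 probes of highest mean were tested instead. No further normalization was applied. Precision is limited by the number of arrays.

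Mutant was compared with control by 2-sided moderated tests (lmFit, then eBayes, in limma 3.58.1 under R 4.3.3), with 4 residual and 2.63 prior degrees of freedom and Benjamini-Hochberg adjustment over all tested probes. Intervals are 95% and unadjusted. Probes were named from the platform annotation (34885 with 1 symbol, 18 with several, 10378 unnamed), and 34807 matched the RefSeq gene table of GRCm38.p6, with 0 symbols changed. The steps were tested on simulated data. The members and lists were chosen with earlier results of these data known. Named were Dicer1, every member probe, up to 4 called genes of each list by size (or the 2 brightest), the 5 genes most correlated with the called member of largest rise, and markers of each cell type list. Other genes named, such as Bace1, Adam10, Errfi1, Lrig3, Ptpn11, Erbin, Timp3, Araf, Pik3r1, Map2k2, Nck1, Gab1, Rps6ka3 and Rcan1, were chosen after their values were seen. Titles number replicates 1 to 3 in both groups, and same-numbered arrays deviated together from their group means (correlations 0.165, 0.155 and 0.224 over tested probes). Arrays of unlike number had -0.157 to 0.0283. The arrays may therefore be paired by number. This check cannot settle it, because the deviations of 3 arrays from their own mean are tied to each other. All calls given are from the fit without the block unless the block is named. Alternatives were no filter, a filter at 10000 probes, centring, quantile normalization, array weights, a variance trend, the replicate block and leaving out each array.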

Additional observations from a re-analysis of the deposited data

How the results depend on the processing

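The 3 called member probes, 1 of Hbegf and 2 of Egfr, kept direction and call under all 13 alternatives run for them, with adjusted p-values up to 0.00112 for Hbegf. With the replicate block, 3 member probes, 32 pathway genes and 6287 probes in all were called (3, 31 and 6596 without it), and apart from Nck1, Gab1, Rps6ka3, 1 further probe each of Sh3kbp1, Pik3r1 and Dicer1, and 6 cell type markers it changed no call of a single probe given in the text. With a difference of at least 1 added, 1 member probe and 828 probes were called. The filter at 10000 probes called 4387 of fewer probes tested. Array weights called 48 pathway genes. They gave mutant replicate 1 the lowest weight, 0.208, and mutant replicate 2 the highest, 4.64, and the cause was not tested. Without any 1 array, 3 to 4 member probes, 21 to 39 pathway genes and 4598 to 7502 probes were called. The highest counts of pathway genes and of probes were those without mutant replicate 1. Signal near the dim end limits Nrg1, Erbb3, Erbb4, Btc, Tgfa and Ereg, for which an absent call does not show an unchanged gene.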
